A study of Mus musculus with 46 samples.

Results

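The leptin receptor signaling core was taken as 8 genes: Lepr, the leptin receptor, Jak2, its kinase, Stat3, its transcription factor, Socs3, its feedback inhibitor, Ptpn1, Ptpn2 and Ptpn11, 3 tyrosine phosphatases, and Sh2b1, an adaptor. They were chosen by name, with earlier results of these data known, and matched by symbol. The shares of members called below therefore describe the set and do not test an excess. All 8 were found among the 31854 genes of the RNA count table. Chromatin at these genes was followed in every ATAC-seq peak with at least 1 base within 100 kb of a member's annotated start site on mm10 (GRCm38). That rule took 164 of 123721 peaks in AgRP nuclei of 3 feeding states and 82 of 67472 peaks in sorted AgRP-positive and AgRP-negative nuclei. These windows also held 1 (Lepr and Ptpn1) to 8 (Sh2b1) starts of other protein-coding genes. A peak is named by the member even where another start is nearer.

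NuTRAP mice carry a Cre-dependent cassette that tags ribosomes and nuclei with fluorescent proteins, here switched on by AgRP-IRES-Cre or POMC-IRES-Cre in neurons of the arcuate nucleus, the hypothalamic region that senses energy stores. Ribosome-bound RNA was purified from AgRP neurons of fed (replicates 1, 3 and 4), fasted (replicates 1 to 4) and leptin-treated (replicates 1 to 4) mice and from POMC neurons in 2 libraries per state. AgRP mice were male, on a C57BL/6J background and 6 to 11 weeks old. Fed mice kept their chow, fasted mice went without food for 18 to 20 h, and both received PBS; leptin-treated mice were fasted likewise and received 5 mg/kg leptin intraperitoneally, and tissue was taken 3 h after injection. Each AgRP RNA sample pooled 4 arcuate nuclei. These ages, times and doses were stated for the AgRP line only. ATAC-seq, which reads open chromatin by transposase insertion, was performed on AgRP nuclei in 2 libraries per state and on AgRP-positive and AgRP-negative nuclei of the NuTRAP AgRP line in 2 libraries each. Tagging follows wherever Cre was active, and the purification leaves some RNA of other cells.

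Leptin, a hormone of adipose tissue, binds the long form of its receptor, which has no enzyme activity and relies on the bound kinase Jak2. Jak2 phosphorylates itself, the receptor and Stat3, and phosphorylated Stat3 enters the nucleus and raises transcription of Socs3, whose protein blocks Jak2 and the receptor. Ptpn1 (PTP1B) and Ptpn2 (TCPTP) remove phosphate from Jak2 and from Stat3, Ptpn11 (SHP2) binds the phosphorylated receptor and passes the signal on, and Sh2b1 binds Jak2 and raises its activity. AgRP neurons drive feeding and are inhibited by leptin, and POMC neurons restrain feeding.

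RNA libraries held 25581041 to 54511107 counts, ATAC-seq libraries of the 3 states 8263234 to 17190963 and those of sorted nuclei 8685497 to 11177208. Agrp and Pomc followed the labels. CPM, the unit used throughout, are counts scaled to a common library size by the TMM method. Agrp lay between 313 and 2136 CPM in AgRP libraries against 5.88 to 27.4 in POMC libraries. Pomc lay between 17.4 and 44.1 CPM in AgRP libraries against 1128 to 2067 in POMC libraries. All 7 AgRP neuron markers listed were called higher (as defined below) in AgRP libraries in each state. Of 5 POMC neuron markers listed, 3 were called lower in AgRP libraries in fed mice. In fasted and in leptin-treated mice 4 were called lower and 1 higher. AgRP replicate 4 of every state and POMC replicate 2 of every state stood apart. In them Slc1a2, the glutamate transporter of astrocytes, was at 20178 to 25883 CPM (AgRP) and 23324 to 26970.3 CPM (POMC), against 2381 to 3850 and 5217 to 6204 in the other libraries, and it made up most of the summed level of the 8 astrocyte markers. The other 7 summed to 1209.5 to 1301 CPM against 709 to 992 in AgRP and 1472 to 1607 against 981 to 1109 in POMC libraries. Of the 8, Slc1a2, Aqp4, Slc1a3 and Gja1 were above all other AgRP libraries in replicate 4, while Gfap, Aldh1l1, Aldoc and Agt overlapped them. Oligodendrocyte markers summed higher too, at 741 to 818 against 447 to 710 (AgRP) and 773 to 987 against 435 to 525 CPM (POMC). Tanycyte and ependymal markers were higher in AgRP replicate 4 (184 to 229 against 116 to 153 CPM). In POMC replicate 2, microglia markers were higher (42.9 to 54.0 against 23.2 to 40.3 CPM). POMC neuron markers were lower there (1690 to 1937 against 2333 to 3110 CPM). Apart from astrocytes, all other sums overlapped. None of the markers searched was at 0 in any of the 17 libraries. Results were therefore also computed without these libraries.

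Per kilobase of transcript, the members spanned a wide range of levels in AgRP neurons. Stat3 and Ptpn11 were the most abundant, with mean levels of 60.7 and 51.7 CPM per kb over the 11 AgRP libraries, above 94.1% and 92.4% of the 13399 genes tested. Lepr followed at 19.6 CPM per kb, then Sh2b1 at 15.3 and Ptpn1 at 11.6. Socs3 at 5.35 and Jak2 at 5.32 CPM per kb were close to each other and Ptpn2 was lowest at 1.65. Socs3 was the member whose place in this order moved most with state, from rank 8 of 8 in fasted to rank 6 of 8 in leptin-treated AgRP neurons.

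**Figure D1:**
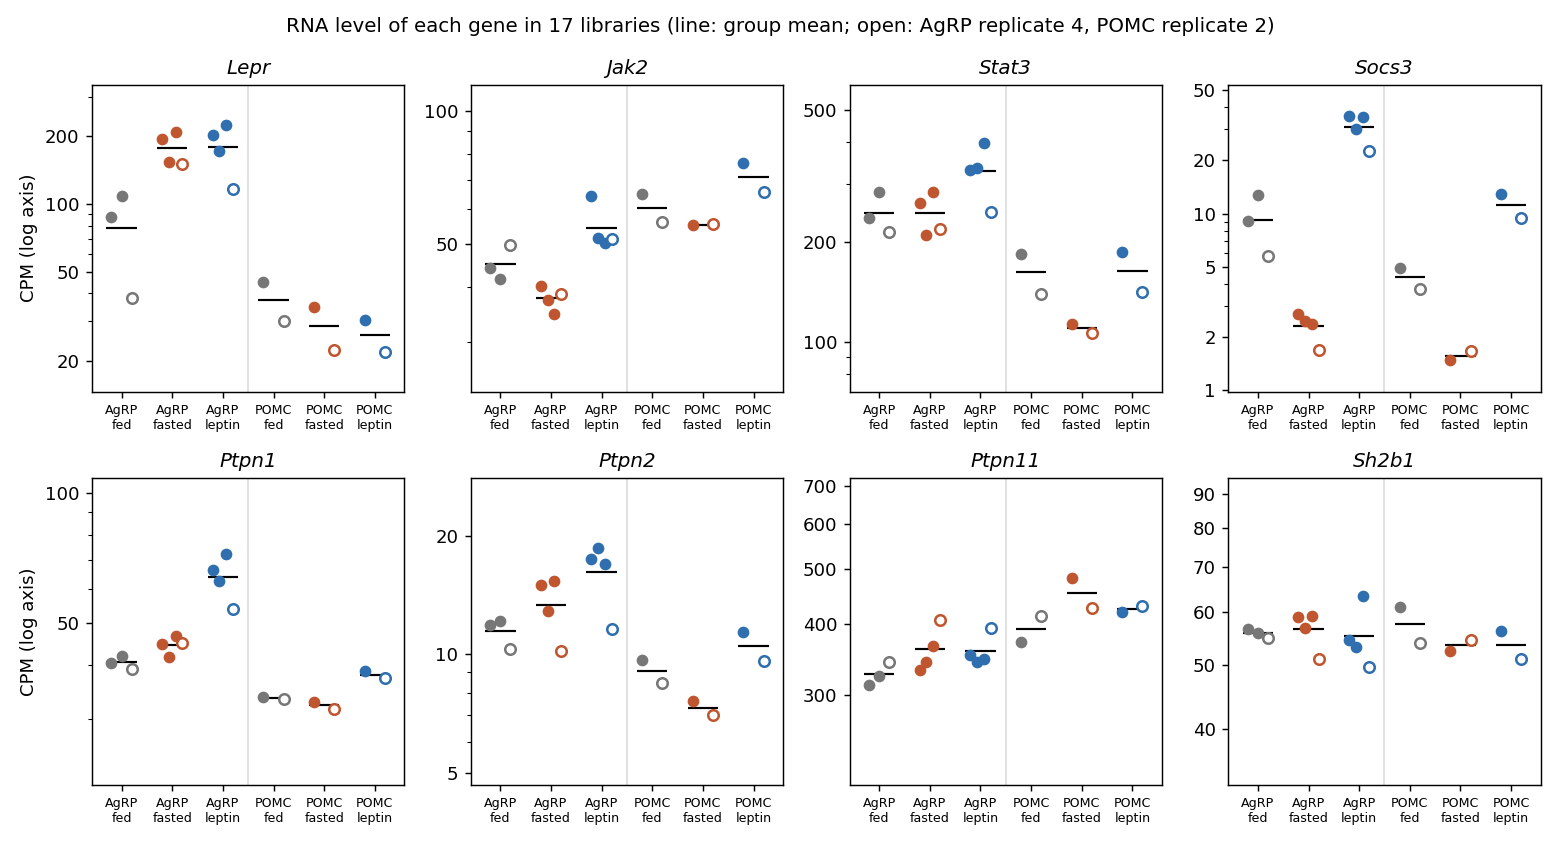
RNA level of each member, in CPM on a log axis, in fed, fasted and leptin-treated AgRP and POMC neurons; each point is 1 library, open points are AgRP replicate 4 and POMC replicate 2, and the line is the group mean. Socs3 is lowest in the fasted and highest in the leptin-treated libraries of both lines, and Lepr lies above the POMC libraries in all fasted and leptin-treated AgRP libraries.

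The receptor was the member that differed most between AgRP and POMC libraries in the fasted and leptin-treated states, while in fed mice the difference of Socs3 was as large. In AgRP neurons Lepr was at 87.1, 108 and 38.2 CPM in the fed libraries (replicates 1, 3 and 4), at 194, 154, 209 and 150.5 CPM in the fasted and at 202, 172, 225 and 117 CPM in the leptin-treated libraries. In POMC neurons it was at 44.8 and 30.1 CPM (fed), 34.8 and 22.3 CPM (fasted) and 30.4 and 22.0 CPM (leptin). All fasted and leptin-treated AgRP libraries lay above all fed AgRP libraries, and fasted and leptin-treated AgRP libraries overlapped each other. The order of the group means was AgRP leptin (179 ± 47.0 CPM, SD, n = 4), AgRP fasted (177 ± 29.4, n = 4), AgRP fed (77.8 ± 35.9, n = 3), POMC fed (37.4 ± 10.4, n = 2), POMC fasted (28.5 ± 8.82, n = 2) and POMC leptin (26.2 ± 5.97, n = 2). Of neighbours in this order, only AgRP fasted and AgRP fed did not overlap. The counts are per gene, so the long and short receptor forms were not told apart, and in bulk samples fewer cells of a type and less RNA per cell cannot be told apart.

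Fasting was compared with feeding in AgRP neurons first, to ask whether the components that carry the leptin signal change when leptin is low. One member was called, which is 1 of 8, against 3.88% of all genes in either direction. For a call, the false discovery rate (FDR, the Benjamini-Hochberg adjusted p of edgeR's quasi-likelihood test) had to be under 0.05, with a log2 fold change beyond 0.5 in either direction. Socs3 fell: its fed libraries were at 9.04, 12.8 and 5.76 CPM and its fasted libraries at 2.72, 2.48, 2.38 and 1.70 CPM. Every fasted library lay below every fed library, and the log2 fold change was -1.98 (SE 0.25, edgeR FDR 0.0017). The call was kept in every alternative tried, with an FDR of at most 0.0104 when any 1 library was left out.

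Lepr was higher in the fasted libraries, by 1.19 on the log2 scale (SE 0.31), and just missed the threshold with an edgeR FDR of 0.0522. Same-numbered AgRP libraries deviated together, and with the replicate number as a block the difference was 1.32 with an FDR of 7.8e-05, so that 2 members were called, against 6.94% of all genes. DESeq2 also called it (1.18, FDR 0.00304), and so did the fits without fasted replicate 4 (1.25, FDR 0.0491) and without fed replicate 3 (1.51, FDR 0.0426). Fed replicate 4, at 38.2 CPM, was the lowest AgRP library for Lepr and is 1 of the libraries high in Slc1a2. In every AgRP and POMC group the library high in Slc1a2 was the lowest for Lepr. Without all replicate 4 libraries the difference was 0.92 with an FDR of 0.0119. Marker lists also stood at different median log2 fold changes with fasting, 0.54 for 7 AgRP neuron markers, -0.43 for 8 oligodendrocyte markers, -0.66 for the 4 microglia markers tested and -0.17 for 8 astrocyte markers, against 0.02 over all genes, with none of these markers called. The AgRP neuron list holds Agrp, Npy and Acvr1c, which the study reports as raised by fasting. What part the cells marked by these lists have in the Lepr difference was not tested.

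The other 6 members showed log2 fold changes between -0.25 and 0.23 with fasting and none was called. Jak2 was at 44.1, 41.7 and 49.8 CPM in fed and at 40.3, 37.4, 34.8 and 38.6 CPM in fasted libraries, which did not overlap, at -0.25 (SE 0.10, FDR 0.204). Stat3 overlapped throughout, with 237, 284 and 215 CPM fed and 263, 210.0, 283 and 219.8 CPM fasted (0.00, SE 0.16). The median log2 fold change of the 8 members was 0.09, against 0.02 over all genes.

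Leptin was compared with vehicle in fasted mice, the contrast that isolates the hormone. Socs3, Jak2 and Ptpn1 rose, which is 3 of the 8 members, against 1.83% of all genes called in either direction. Socs3 reached 35.7, 30.2, 35.0 and 22.7 CPM after leptin, and every leptin-treated library lay above every fed and every fasted library. The log2 fold change was 3.73 (SE 0.25, edgeR FDR 3.63e-05), and it stayed between 3.63 and 3.84 when any 1 library was left out. The fasted libraries of this contrast are also those of the fasting contrast, so the fall and the rise share them. The raw counts behind it were 49 to 128 per fasted library and 757 to 1921 per leptin-treated library.

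The kinase Jak2 was at 64.2, 51.7, 50.3 and 51.3 CPM after leptin, all above the fasted libraries given before. Its log2 fold change was 0.52 (SE 0.09, FDR 0.0136), near the minimum of 0.5 set for a call. The call was lost with library size alone as the scaling (0.53, FDR 0.103) and when fasted replicate 3 (0.49, FDR 0.0544) or leptin replicate 1 (0.44, FDR 0.0348) was left out. The phosphatase Ptpn1 was at 40.5, 41.9 and 39.1 CPM fed, 44.7, 41.6, 46.5 and 45.0 CPM fasted and 66.3, 62.5, 72.0 and 53.8 CPM after leptin. Its leptin-treated libraries lay above all others, and its log2 fold change was 0.52 (SE 0.08, FDR 0.00724). That call was lost with library size alone (0.52, FDR 0.0987) and when fasted replicate 2 (0.49, FDR 0.0288) or leptin replicate 3 (0.45, FDR 0.0196) was left out.

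Stat3 was at 330.0, 335, 396 and 247 CPM after leptin, of which the lowest, replicate 4, overlapped the fasted and fed libraries. It stood at 0.42 on the log2 scale (SE 0.14, FDR 0.268), which missed the threshold, and the replicate block gave 0.42 with an FDR of 0.00259, still under the fold minimum. Lepr did not differ detectably between leptin and vehicle (0.01, SE 0.28, FDR 1.0). Ptpn2 was at 15.02, 12.9, 15.3 and 10.2 CPM fasted and at 17.4, 18.6, 16.9 and 11.6 CPM after leptin (0.27, SE 0.15, FDR 0.754). Ptpn11 and Sh2b1 showed -0.01 (SE 0.10) and -0.04 (SE 0.08), and the libraries of Sh2b1 overlapped between all neighbouring groups, with 49.6 to 63.3 CPM over the 17 libraries. The median over the members was 0.35, against -0.01 over all genes.

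Leptin-treated fasted mice were also set against fed mice, which differ from them in both food and injection. Socs3, Ptpn1 and Lepr were higher, 3 of 8 members against 5.46% of all genes. Socs3 was higher by 1.75 on the log2 scale (SE 0.25, FDR 0.00247) and Ptpn1 by 0.66 (SE 0.09, FDR 0.00178), both in every alternative tried. Lepr was higher by 1.21 (SE 0.31, FDR 0.0378), with no overlap between libraries. That call was lost with library size alone (1.15, FDR 0.107) and when any 1 of 5 libraries was left out: fed replicate 1 (1.29, FDR 0.0984), fed replicate 4 (0.87, FDR 0.0733) or leptin replicate 1 (1.15, FDR 0.0810), 2 (1.23, FDR 0.0706) or 3 (1.08, FDR 0.0967). Ptpn2 (0.50, FDR 0.0889) and Stat3 (0.42, FDR 0.129) were not called. Without leptin replicate 4, a library high in Slc1a2 and the lowest after leptin for both genes, they were called at 0.62 (FDR 0.0236) and 0.53 (FDR 0.0458), which made 5 members. Without all replicate 4 libraries Ptpn2 was at 0.54 (FDR 0.0168).

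**Figure D2:**
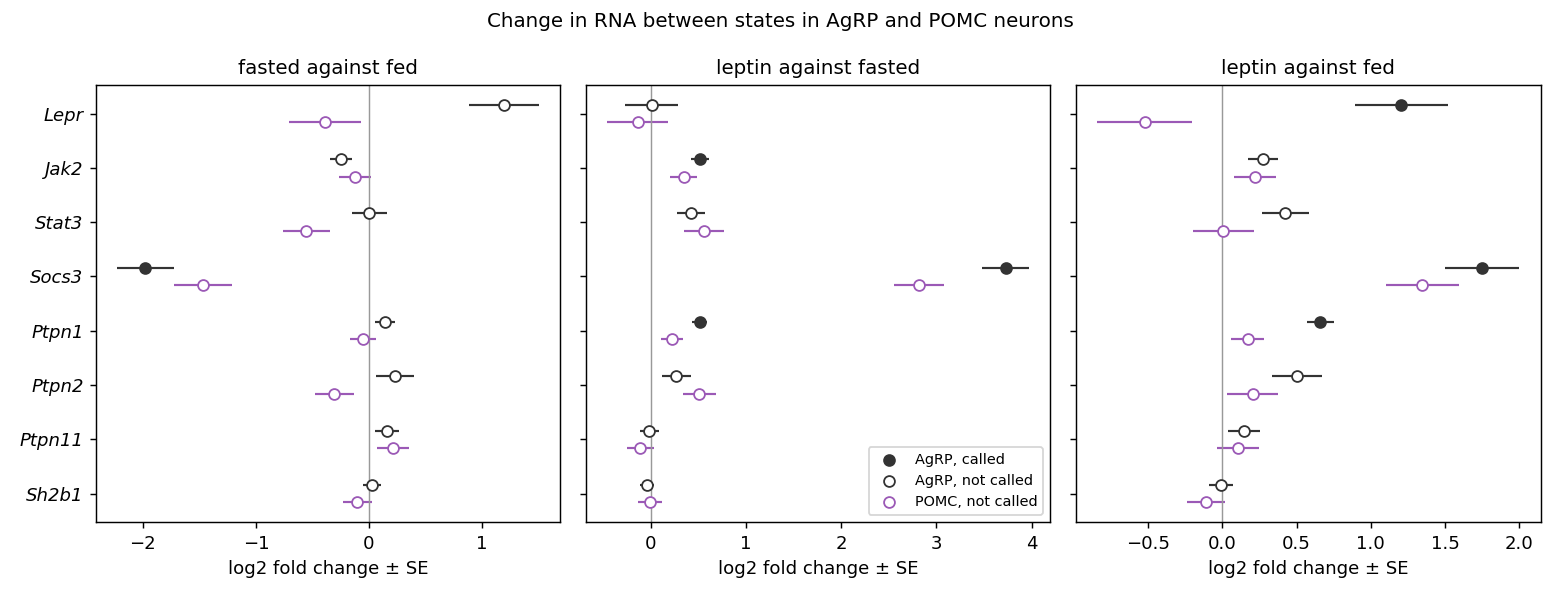
Log2 fold change of each member's RNA in the 3 contrasts of AgRP neurons and the 3 of POMC neurons; the bars are 1 standard error and filled points are called. Socs3 moves by -1.98 with fasting and by 3.73 with leptin in AgRP neurons, and by -1.47 and 2.82 in POMC neurons, where no point is called.

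In POMC neurons, with 2 libraries per state, edgeR called no member and no gene at all. The share called was 0.0% of 13416 genes with fasting, 0.0% with leptin against fasted and 0.0% with leptin against fed. At an unadjusted p under 0.05 it gave 135 genes higher and 148 lower with fasting, 115 and 36 with leptin against fasted, and 155 and 127 with leptin against fed, and DESeq2 called 3, 10 and 7 genes. Among the members, 2, 3 and 1 had an unadjusted p under 0.05 and DESeq2 called 1 in each contrast, Socs3.

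Socs3 was at 4.95 and 3.76 CPM in fed POMC neurons, 1.48 and 1.67 CPM in fasted and 12.9 and 9.43 CPM in leptin-treated POMC neurons. No state overlapped another, in the same order as in AgRP neurons. The leptin difference was 2.82 (SE 0.26) with an edgeR FDR of 0.895. DESeq2 called it with an FDR of 1.22e-13, in a contrast where it called 0.0745% of all genes, the replicate block with an FDR of 0.00186 and the model of all 6 AgRP and POMC groups with an FDR of 0.00773. The fasting difference was -1.47 (SE 0.26, FDR 1.0, DESeq2 FDR 0.0430) and the difference of leptin from fed was 1.35 (SE 0.24, FDR 1.0, DESeq2 FDR 0.0275). Stat3 was at 185 and 139 CPM fed, 114 and 107 CPM fasted and 186 and 141 CPM after leptin, with fasted libraries below the others (-0.56 with fasting, 0.56 with leptin, FDR 1.0 for each). Lepr, the receptor, showed -0.39 with fasting and -0.14 with leptin, with overlapping libraries in both.

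AgRP and POMC neurons were compared within each state in 1 model of 6 groups. Cell type and mouse line cannot be told apart in this comparison. In fed mice 0 of 8 members were called by edgeR, against 3.22% of 13437 genes. At an unadjusted p under 0.05 there were 6 members, and DESeq2 called 1. Lepr was at 1.06 (AgRP minus POMC, SE 0.38, FDR 0.194), Socs3 at 1.08 (SE 0.30, FDR 0.0675) and Jak2 at -0.42 (SE 0.12, FDR 0.0853). Without AgRP fed replicate 4, Lepr (1.38, FDR 0.0279) and Socs3 (1.32, FDR 0.0133) were called. With the AgRP replicate 4 and POMC replicate 2 libraries left out, Lepr (1.12, FDR 0.0221), Socs3 (1.14, FDR 0.0216) and Jak2 (-0.61, FDR 0.0498) were called, and DESeq2 called Socs3 (1.09, FDR 0.0108).

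In fasted mice 4 of 8 members were called, against 13.3% of all genes. The receptor stood out, with Lepr higher in AgRP neurons by 2.63 on the log2 scale (SE 0.40, FDR 0.000574). Stat3 was higher by 1.15 (SE 0.20, FDR 0.00164) and Ptpn2 by 0.87 (SE 0.20, FDR 0.00866), and no AgRP library of either overlapped a POMC library. Jak2 was lower by -0.55 (SE 0.12, FDR 0.00537). The Ptpn2 call was lost without POMC fasted replicate 2 (0.79, FDR 0.0893) and the Jak2 call with library size alone (-0.48, FDR 0.0968). Ptpn1 (0.46, FDR 0.00668) and Ptpn11 (-0.33, FDR 0.0443) passed the FDR and were under the fold minimum.

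After leptin 5 of 8 members were higher in AgRP neurons, against 11.2% of all genes called. Lepr was higher by 2.77 (SE 0.41, FDR 0.000481), Socs3 by 1.47 (SE 0.29, FDR 0.00426), Stat3 by 1.00 (SE 0.20, FDR 0.00463), Ptpn1 by 0.75 (SE 0.10, FDR 0.000312) and Ptpn2 by 0.62 (SE 0.19, FDR 0.0478). Lepr and Ptpn1 were called in every alternative tried. Without POMC leptin replicate 2 the calls of Stat3 (0.81, FDR 0.0809), Socs3 (1.26, FDR 0.0692) and Ptpn2 (0.50, FDR 0.314) were lost and 2 members were left. Ptpn2 lost its call in 8 alternatives in all, with FDRs up to 0.314, among them each fit without POMC leptin replicate 1 or AgRP leptin replicate 1, 2 or 3. Ptpn11, at 353, 343, 347 and 393 CPM in AgRP and 419.7 and 430.2 CPM in POMC neurons, was lower in each AgRP library (-0.24, FDR 0.136).

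The difference between the lines in the response to fasting or leptin was tested as an interaction. For the fasting effect 0 of 8 members were called by edgeR, against 0.134% of all genes, with 1 member at an unadjusted p under 0.05 and 0 called by DESeq2. Lepr had the largest difference, 1.58 (AgRP minus POMC, SE 0.52, FDR 0.305), since it was higher by 1.19 in fasted AgRP neurons and stood at -0.39 in POMC neurons. With the replicate number within each line as a block, Lepr (1.71, FDR 0.000264) and Stat3 (0.56, FDR 0.0170) were called, against 6.21% of all genes. AgRP and POMC libraries shared no block, and whether the number pairs POMC libraries could not be settled. For the leptin effect 0 of 8 members were called, against 0.0819% of all genes, again with 1 member at an unadjusted p under 0.05 and 0 called by DESeq2. Socs3, at 3.73 in AgRP and 2.82 in POMC neurons, differed by 0.90 (SE 0.41, FDR 1.0).

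Other genes of the pathway were followed in lists without the members. Of 23 kinases, STATs and adaptors tested (24 listed), none was called in the 3 AgRP contrasts, and of 9 genes of receptor trafficking tested none was. Irs4, an insulin receptor substrate, was the most abundant of all these at 323 CPM per kb. Of 10 inhibitors tested (12 listed), 2 fell with fasting, 2 rose with leptin against fasted and 1 was higher with leptin than in fed mice, and all of these were SOCS family genes. Their median log2 fold changes were -0.18, -0.01 and -0.09, beside 0.02, -0.01 and 0.01 over all genes.

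Socs2, an inhibitor of growth hormone and cytokine signaling, was at 16.7, 17.7 and 13.4 CPM fed, 12.1, 12.4, 10.5 and 14.8 CPM fasted and 41.3, 28.8, 36.9 and 29.9 CPM after leptin. Its leptin-treated libraries lay above all others, and it was higher by 1.46 (SE 0.15, FDR 0.000549) than in fasted and by 1.11 (SE 0.16, FDR 0.00264) than in fed libraries. Socs1, a Jak inhibitor, was at 2.64, 2.59 and 1.96 CPM fed, 1.54, 1.28, 1.49 and 1.49 CPM fasted and 4.32, 2.84, 4.16 and 3.05 CPM after leptin. No state overlapped another for Socs1. It fell with fasting (-0.72, SE 0.18, FDR 0.0452) and rose with leptin (1.31, SE 0.17, FDR 0.00184). Cish, which binds cytokine receptors, fell with fasting (-0.82, SE 0.19, FDR 0.0323) and was not called with leptin (0.73, SE 0.18, FDR 0.0699). Socs1 lost its call with library size alone (FDR 0.130), with no filter on low genes (FDR 0.0731) and without any 1 of the 3 fed libraries or of fasted replicates 1, 2 and 3 (FDR 0.0507 to 0.166). Cish lost its call with library size alone (FDR 0.0763) and without fed replicate 1 or 3 or fasted replicate 1, 2 or 3 (FDR 0.0590 to 0.150).

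Genes whose RNA ran most like that of a member were found by Pearson's r of log2 CPM. Over the 11 AgRP libraries those closest to Socs3 were Drd1, a dopamine receptor (r = 0.986), Tnfrsf11b, a decoy receptor (0.982), Nedd9, an adhesion docking protein (0.966), Serpina3i (0.961) and Sbno2 (0.961). Serpina3i has near-identical paralogs, so its counts are uncertain. Over all 17 AgRP and POMC libraries those closest to Lepr were Ppp3cc, a calcineurin subunit (0.986), Ostc (0.978), Rap1b (0.977), Cdr2 (0.974) and Ezr (0.972). These libraries share states, lines and the replicates high in Slc1a2, and the values are descriptive.

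Chromatin at the members was followed next. In AgRP nuclei, leptin opened 7 of the 135 member peaks tested and closed 0, against 2.41% of all 102198 peaks higher and 0.669% lower. Of the 7, 4 lay at Socs3 (of 21 tested there), and 1 each at Stat3, Ptpn1 and Ptpn2. None of the 24 peaks at Lepr, 12 at Jak2, 19 at Ptpn11 or 11 at Sh2b1 was called with leptin. Positions are given from the start site, with negative values upstream.

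The 4 Socs3 peaks lay at +62.9 kb, downstream of the gene and between genes (chr11:117906688-117907622), at +7.5 kb, downstream of the gene and between genes (chr11:117962344-117962786), and at -20.1 kb (chr11:117989908-117990421) and -25.5 kb (chr11:117995247-117995865), both in introns of the neighbouring gene Pgs1. Socs3 itself lies on the minus strand at chr11:117966079-117970047 on mm10. The central 300 bases of each are shown, read from the GRCm38 reference on the plus strand, because all 4 hold the pattern TTCNNNGAA, the palindromic letters to which STAT factors bind (N is any base, and the pattern reads alike on both strands). Capitals mark the pattern.
Socs3 +62.9 kb, chr11:117907005-117907304, plus strand: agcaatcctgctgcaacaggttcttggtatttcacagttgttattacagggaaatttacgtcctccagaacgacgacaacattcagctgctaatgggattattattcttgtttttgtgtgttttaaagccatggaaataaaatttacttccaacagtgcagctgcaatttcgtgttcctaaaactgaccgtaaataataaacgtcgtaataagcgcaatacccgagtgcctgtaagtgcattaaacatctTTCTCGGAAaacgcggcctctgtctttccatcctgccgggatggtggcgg
Socs3 +7.5 kb, chr11:117962415-117962714, plus strand: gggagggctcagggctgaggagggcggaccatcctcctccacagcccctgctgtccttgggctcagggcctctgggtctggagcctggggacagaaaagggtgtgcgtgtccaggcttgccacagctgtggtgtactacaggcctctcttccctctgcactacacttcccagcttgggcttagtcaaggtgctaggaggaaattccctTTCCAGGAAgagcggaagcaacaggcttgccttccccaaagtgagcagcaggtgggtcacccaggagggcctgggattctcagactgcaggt
Socs3 -20.1 kb, chr11:117990015-117990314, plus strand: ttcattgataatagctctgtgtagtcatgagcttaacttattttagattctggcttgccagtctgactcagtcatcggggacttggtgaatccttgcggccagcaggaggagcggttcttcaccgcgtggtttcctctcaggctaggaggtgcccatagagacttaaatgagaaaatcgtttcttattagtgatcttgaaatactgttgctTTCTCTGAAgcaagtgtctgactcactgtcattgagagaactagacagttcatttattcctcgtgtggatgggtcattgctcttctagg
Socs3 -25.5 kb, chr11:117995406-117995705, plus strand: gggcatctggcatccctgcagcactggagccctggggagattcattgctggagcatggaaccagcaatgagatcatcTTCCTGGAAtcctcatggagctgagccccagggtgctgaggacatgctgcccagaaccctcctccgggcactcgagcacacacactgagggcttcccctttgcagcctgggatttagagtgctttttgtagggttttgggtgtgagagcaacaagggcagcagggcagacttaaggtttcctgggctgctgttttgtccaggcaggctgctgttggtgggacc

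The same pattern lies just before the RefSeq start of Socs3. The 250 bases there (RefSeq, GRCm38.p6) are shown 5′ to 3′ on the minus strand, and in GENCODE vM21 they overlap an annotated exon of Socs3.
Socs3 promoter, chr11:117969367-117969616, minus strand: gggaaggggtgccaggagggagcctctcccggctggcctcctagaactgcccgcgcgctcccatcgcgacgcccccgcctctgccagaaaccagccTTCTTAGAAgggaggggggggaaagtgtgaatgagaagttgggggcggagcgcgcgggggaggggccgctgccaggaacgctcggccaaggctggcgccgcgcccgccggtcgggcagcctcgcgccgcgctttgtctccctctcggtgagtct

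Of the promoter windows in the RefSeq table, 9 were searched for 7 of the members, and those of Ptpn2 were not searched. Of these 7, Socs3 alone had the pattern, as did 8.3% of all 32851 windows. The peak over the Ptpn2 start site in sorted nuclei held it in its central 300 bases. Of the peaks at Socs3, the pattern was in the central 300 bases of all 4 opened by leptin and of 1 of 17 that were not called, the peak over the start site. It was in none of the 3 leptin-opened peaks at the other members. Over all peaks tested it was in 963 of 2458 opened by leptin (39.2%), 59 of 684 closed (8.63%) and 12642 of 102165 (12.4%). Of all member peaks, tested or not, 18 of 164 (11%) held it. These matches describe letters, and binding was not measured. A second pattern, TGANTCA of AP-1 factors, was in 42 of 164 member peaks (25.6%) against 31.2% of all, and overlaps between the patterns were not counted.

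**Figure D3:**
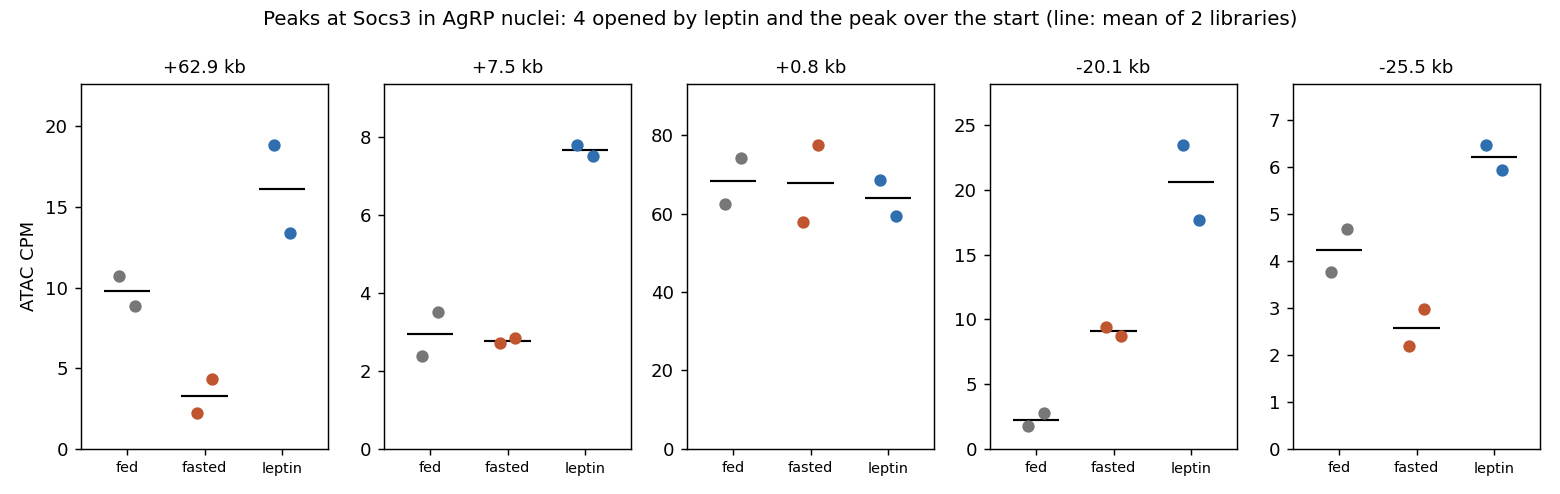
ATAC-seq level, in CPM, of the 4 leptin-opened peaks at Socs3 and of the peak over its start site in fed, fasted and leptin-treated AgRP nuclei; each point is 1 library, the line is the mean of 2, and each panel has its own axis from 0. In each of the 4 opened peaks both leptin libraries lie above both fasted libraries, while the start-site peak stays between 57.9 and 77.6 CPM.

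The start of another gene, Tha1, is nearer to the +62.9 kb peak than that of Socs3. The start of Pgs1 is likewise nearer to the -20.1 and -25.5 kb peaks. The RNA of Tha1 and Pgs1 was not examined. The +62.9 kb peak, the first of the sequences shown, had the same order of states as the RNA of Socs3. It was at 10.7 and 8.84 CPM in fed, 2.20 and 4.36 CPM in fasted and 18.9 and 13.4 CPM in leptin-treated nuclei, with no overlap between states. It closed with fasting (-1.54, SE 0.38, FDR 0.00482) and opened with leptin (2.28, SE 0.33, FDR 0.000578). The leptin call was kept in every alternative tried, with an FDR of 0.00125 to 0.0274 when any 1 library was left out, and the fasting call was lost without fasted replicate 1 (-1.13, FDR 0.0608). Leptin-treated and fed nuclei differed by 0.74 (SE 0.30, FDR 0.0543), a difference called with library size alone (FDR 0.0341), with the replicate block (FDR 0.0322) and without leptin replicate 2 (FDR 0.0482).

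The -20.1 kb peak took another course. It rose from 1.76 and 2.78 CPM in fed to 9.44 and 8.71 CPM in fasted and to 23.5 and 17.7 CPM in leptin-treated nuclei. It was called in each contrast, at 1.92 with fasting (FDR 0.00138), 1.17 with leptin (FDR 0.0110) and 3.10 between leptin and fed (FDR 6.49e-06). The +7.5 kb peak was at 2.39 and 3.51 CPM fed, 2.72 and 2.84 CPM fasted and 7.82 and 7.53 CPM after leptin, and was called with leptin only (1.46, FDR 0.0111 against fasted, and 1.31, FDR 0.00481 against fed). The -25.5 kb peak was at 3.77 and 4.68 CPM fed, 2.20 and 2.97 CPM fasted and 6.48 and 5.94 CPM after leptin (1.26 with leptin, FDR 0.0399). The open chromatin over the Socs3 start site, by far the highest of these peaks, had 62.5 and 74.2 CPM fed, 57.9 and 77.6 CPM fasted and 68.5 and 59.4 CPM after leptin (-0.08 with leptin, FDR 0.884).

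The 3 other leptin-opened peaks lay at +52.1 kb of Stat3, over its 3′ UTR exon (chr11:100887105-100887805), at +38.0 kb of Ptpn1, in an intron (chr2:167969707-167970401), and at -21.5 kb of Ptpn2, between genes. The start of Stat5a is nearer to the +52.1 kb peak than that of Stat3. The Stat3 peak was at 1.76 and 2.70 CPM fed, 9.89 and 7.51 CPM fasted and 22.5 and 13.6 CPM after leptin, rising with fasting (1.89, FDR 0.0032) and again with leptin (1.04, FDR 0.0469). The Ptpn1 peak was at 9.44 and 7.23 CPM fed, 6.27 and 3.47 CPM fasted and 14.02 and 8.78 CPM after leptin (1.21, FDR 0.0486). The Ptpn2 peak was at 2.01 and 2.70 CPM fed, 6.40 and 4.99 CPM fasted and 13.9 and 10.6 CPM after leptin (1.10, FDR 0.0347).

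The states had 2 libraries each, and a state left with 1 library was assumed to vary like the others. Of the 7, only the +62.9 kb peak of Socs3 kept its call without fasted replicate 1, without fasted replicate 2 or without leptin replicate 1, when the other 6 had FDRs up to 0.379, 0.320 and 0.460. Without leptin replicate 2 the -20.1 kb peak kept it too. DESeq2 called 3 of the 7.

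Fasting against feeding opened 21 and closed 7 of the 135 member peaks, against 18.1% and 8.85% of all peaks. By gene, 6 of 19 tested peaks were opened at Ptpn1 (31.6%), 5 of 11 at Ptpn2 (45.5%) and 3 of 19 at Ptpn11 (15.8%). Ptpn11 was thus under the share of all peaks, and the other members were at 0% (Sh2b1) to 11.1% (Stat3). The largest was at -15.4 kb of Ptpn2, at 1.51 and 0.95 CPM fed and 14.7 and 13.2 CPM fasted (3.58, SE 0.45, FDR 3.55e-05). At Ptpn1 it was at -54.7 kb, at 3.90 and 4.68 CPM fed and 21.5 and 14.7 CPM fasted (2.04, SE 0.33, FDR 0.000204). At Ptpn11 it was at +87.6 kb, 0.755 and 0.804 CPM fed and 5.50 and 3.73 CPM fasted (2.54, SE 0.49, FDR 0.000926). For the RNA of these 3 phosphatases the fasting differences were 0.14, 0.23 and 0.16, and none was called. Jak2 had 1 opened peak, at -66.0 kb (1.37, FDR 0.0131), and Sh2b1 had 2 closed and 0 opened, with the larger change at -53.0 kb (-1.39, FDR 0.0380). The Jak2 call was lost without fasted replicate 1 (1.19, FDR 0.0726) or fed replicate 1 (1.11, FDR 0.0811), and the Sh2b1 call with DESeq2 (FDR 0.0946) and without any 1 of the 4 libraries, fasted replicate 1 (FDR 0.189) or 2 (FDR 0.0550) or fed replicate 1 (FDR 0.0672) or 2 (FDR 0.222).

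Lepr had 2 opened and 1 closed of 24 peaks tested. The opened peaks lay far upstream, at -96.9 kb in the gene Dnajc6, with 0.126 and 0.658 CPM fed and 2.91 and 2.65 CPM fasted (2.57, SE 0.61, FDR 0.00384), and at -21.1 kb, with 1.01 and 1.61 CPM fed and 5.11 and 3.54 CPM fasted (1.64, FDR 0.0127). The closed peak, at -15.7 kb between genes, was the most open of the 3, at 45.8 and 41.8 CPM fed, 28.0 and 15.7 CPM fasted and 29.1 and 23.1 CPM after leptin. It fell by 1.00 on the log2 scale with fasting (SE 0.23, FDR 0.00328) while Lepr RNA stood higher, and lost that call without fasted replicate 2 (-0.63, FDR 0.0873). It was lower in leptin-treated than in fed nuclei too (-0.75, FDR 0.0136), a call lost without leptin replicate 2 (-0.57, FDR 0.162).

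Leptin-treated against fed nuclei, a contrast that shares its libraries with both others, had 26 member peaks higher and 10 lower, against 23.3% and 13.4% of all peaks. Lepr had 8 of these higher and 1 lower of 24, and Ptpn1 7 higher and 1 lower of 19. The peaks over the start sites of all 8 members were called in none of the 3 state contrasts. Among them log2 fold changes lay between -0.30 and 0.08 with fasting and between -0.26 and -0.07 with leptin against fasted, and between -0.51 and -0.01 for leptin against fed. The lowest of the last were Ptpn11 (-0.51, FDR 0.0695) and Ptpn2 (-0.42, FDR 0.0335, under the fold minimum). Without fed replicate 1, the shallowest library, both were called lower (-0.65, FDR 0.0424, and -0.62, FDR 0.00465), and the Ptpn2 start-site peak was also called lower with fasting (-0.50, FDR 0.0258).

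**Figure D4:**
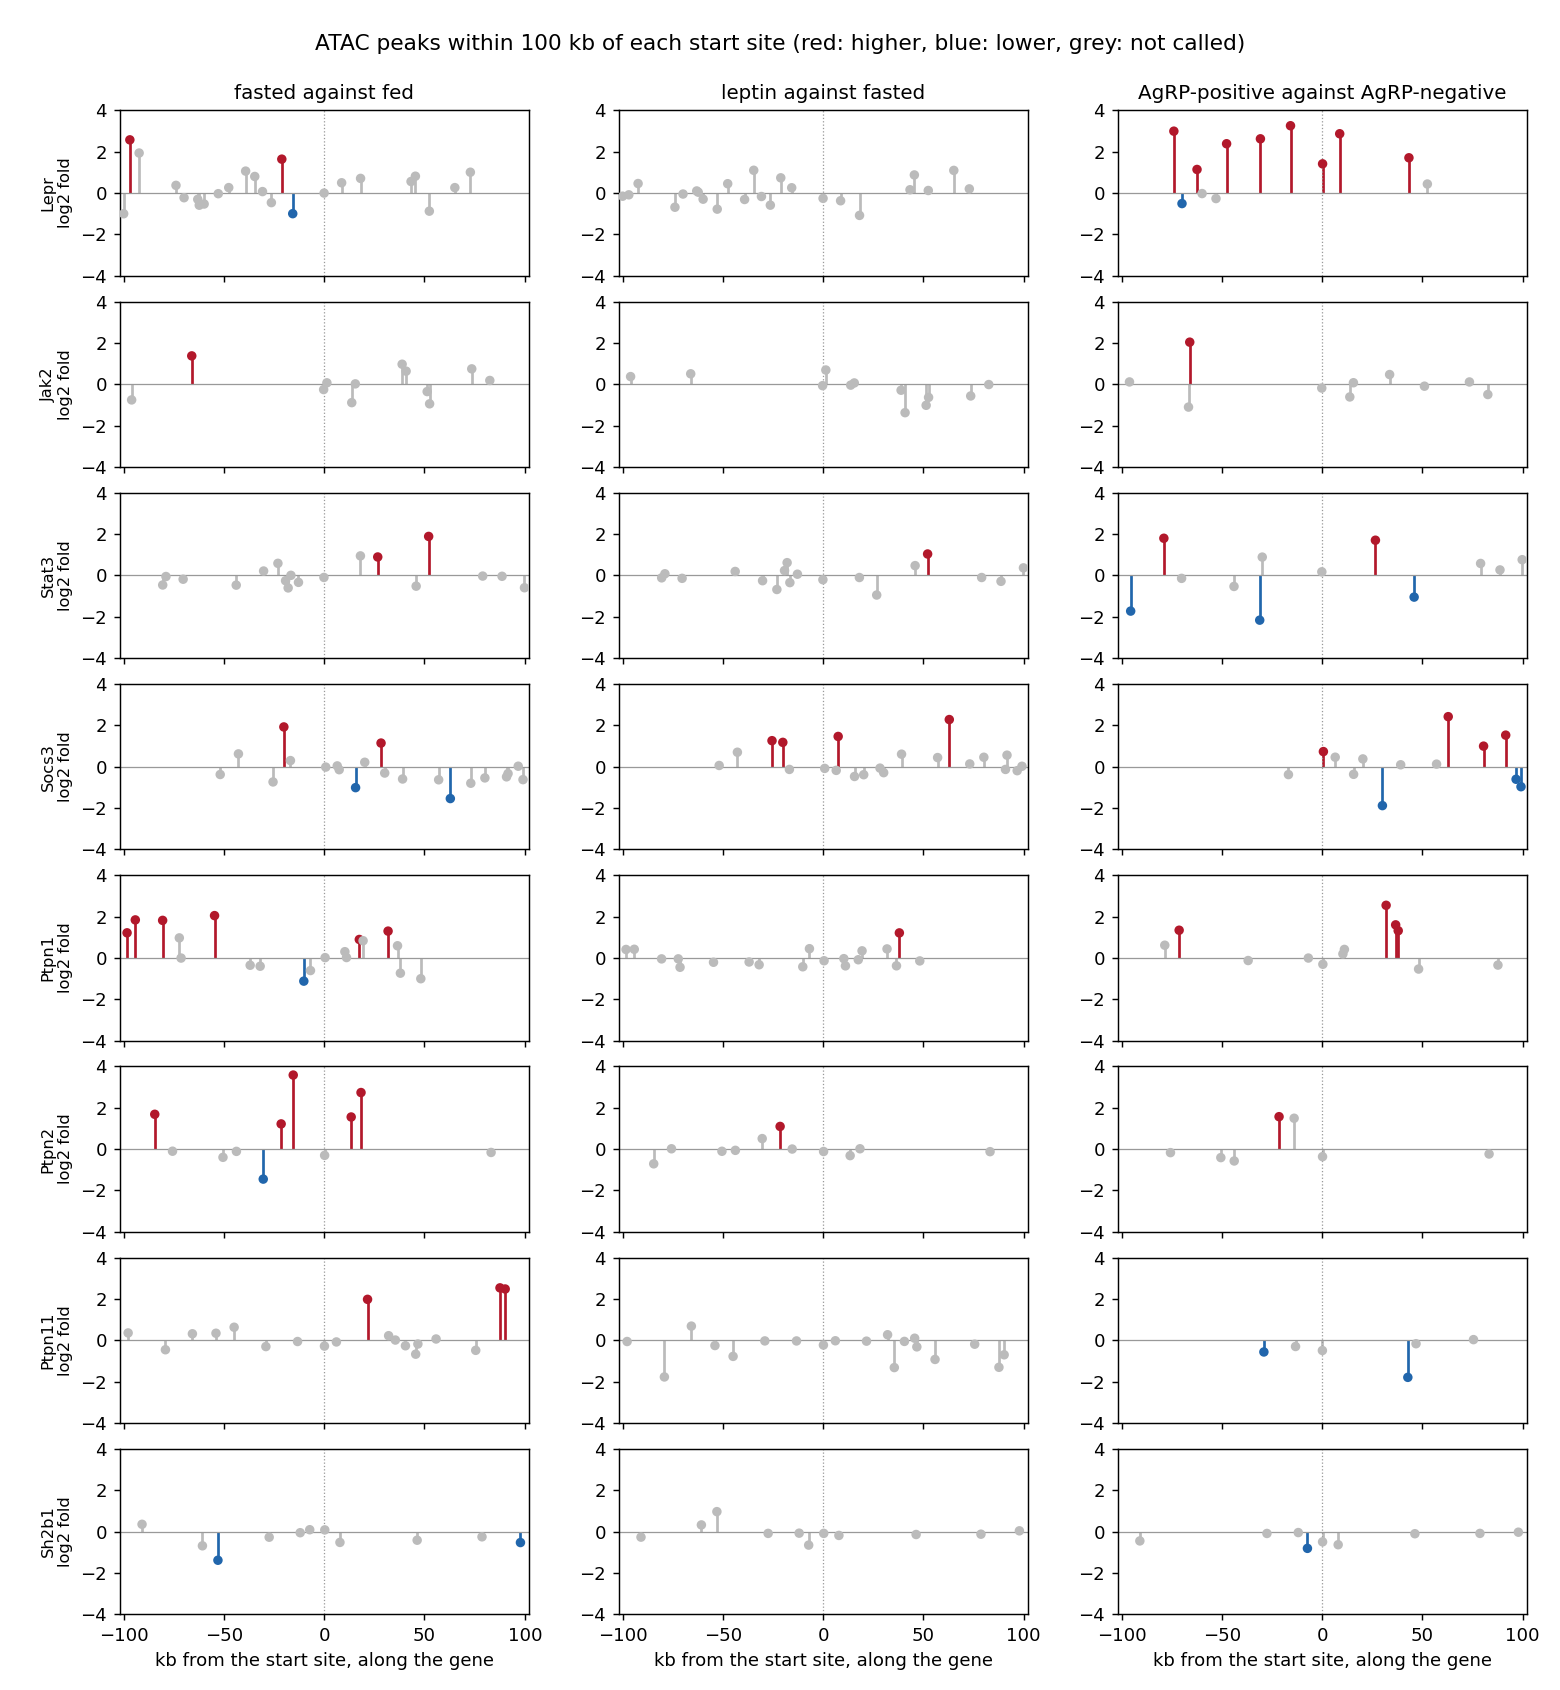
Log2 fold change of each member peak tested in ATAC-seq, by gene, against its distance from the start site in kb, for fasted against fed, leptin against fasted and AgRP-positive against AgRP-negative nuclei; red is called higher, blue lower and grey not called. Leptin opens 4 peaks at Socs3 and 1 each at Stat3, Ptpn1 and Ptpn2, and 8 of 12 peaks at Lepr are higher in AgRP-positive nuclei.

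AgRP-positive nuclei were set against AgRP-negative nuclei of the same arcuate tissue, to ask where chromatin at the members differs between AgRP neurons and the other cells. Both kinds of nuclei came from the same pools of tissue, and the fit did not use that pairing; with the replicate number as a block there were 31 member calls in place of 30. Of 81 member peaks tested, 20 were higher and 10 lower, against 24.0% and 15.6% of all 66494 peaks. With library size alone as the scaling, which moved the median of all peaks by 0.16 (log2), the members had 23 higher and 3 lower and the share of calls that were higher rose from 60.6% to 71.4% over all peaks. Without AgRP-negative replicate 2 the member calls fell from 30 to 17.

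Within 100 kb of the Lepr start, 8 of 12 peaks were higher and 1 lower. The strongest was at -15.8 kb (chr4:101701061-101702230), at 5.91 and 4.86 CPM in AgRP-negative and 51.1 and 51.5 CPM in AgRP-positive nuclei (3.25, SE 0.20, FDR 3.8e-54). It overlaps the -15.7 kb peak that closed with fasting, whose central 300 bases are shown for that reason; they hold no TTCNNNGAA, and no letters are in capitals.
Lepr -15.7 kb, chr4:101701563-101701862, plus strand: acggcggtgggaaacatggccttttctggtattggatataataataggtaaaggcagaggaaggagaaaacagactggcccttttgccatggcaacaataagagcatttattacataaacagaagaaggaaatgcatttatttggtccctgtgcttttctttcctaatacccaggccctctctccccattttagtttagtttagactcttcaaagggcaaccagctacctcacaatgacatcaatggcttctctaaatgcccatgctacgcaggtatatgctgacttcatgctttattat

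The peak at -30.8 kb was at 9.85 and 6.40 against 47.7 and 52.0 CPM (2.62, SE 0.19, FDR 3.28e-41), and that at -73.9 kb at 1.60 and 1.30 against 9.43 and 13.7 CPM (2.99, SE 0.38, FDR 1.44e-13). The peak over the Lepr start was higher as well, at 7.14 and 4.62 against 16.4 and 14.8 CPM (1.41, SE 0.25, FDR 3.71e-07). The 1 lower peak, at -69.9 kb, was the most open of the 12 in both kinds of nuclei, at 171 and 162 against 121 and 112 CPM (-0.51, SE 0.11, FDR 1.03e-05), close to the fold minimum. Lepr itself lies on the plus strand at chr4:101717404-101815352. Of the called peaks, those at -73.9, -69.9, -62.4 and -47.6 kb lie nearer to the start of another gene, Leprot.

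**Figure D5:**
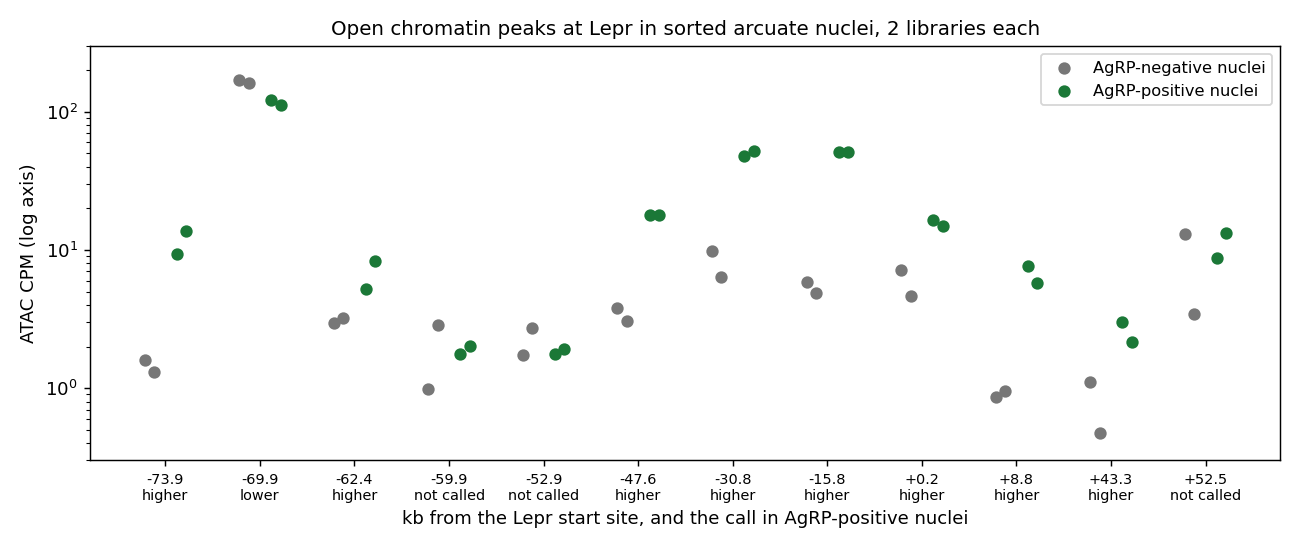
ATAC-seq level (CPM, log axis) of the 12 peaks within 100 kb of the Lepr start in AgRP-negative and AgRP-positive nuclei, ordered by position in kb; each point is 1 library. At 8 peaks both AgRP-positive libraries lie above both AgRP-negative libraries and are called higher, and the peak at -69.9 kb is lower.

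At Socs3, 4 of 13 peaks were higher and 3 lower in AgRP-positive nuclei. The +62.9 kb peak was again the one with the largest difference, at 1.23 and 1.78 against 6.22 and 9.92 CPM (2.42, SE 0.41, FDR 7.53e-08), and the start-site peak was at 27.6 and 28.9 against 46.7 and 47.0 CPM (0.73, SE 0.15, FDR 9.53e-06). Of the 7 leptin-opened member peaks, 3 overlapped a peak of this set, and all 3 were higher in AgRP-positive nuclei, namely that of Socs3, the Ptpn1 intron peak (1.31, FDR 0.00293) and the -21.5 kb peak of Ptpn2 (1.57, FDR 0.00388). These shares over all leptin-opened peaks were not computed, so nothing particular to the members can be read from this. The Ptpn2 call was lost with DESeq2 (FDR 0.0631), without AgRP-negative replicate 2 (1.43, FDR 0.0870) and without AgRP-positive replicate 2 (0.61, FDR 0.490). Ptpn1 had 4 of 12 higher and 0 lower, and Stat3 2 of 12 higher and 3 lower. Jak2 and Ptpn2 had 1 higher each, Ptpn11 2 lower and Sh2b1 1 lower. The Jak2 call was lost without AgRP-negative replicate 1 (FDR 0.0852) and the Sh2b1 call, at -7.3 kb (-0.81, FDR 0.0272), without AgRP-negative replicate 2 (-0.58, FDR 0.350) or either AgRP-positive library (FDR 0.0849 and 0.0752). The strongest Stat3 difference, at -31.1 kb (-2.16, FDR 0.0022), lost its call without AgRP-negative replicate 2 (-2.06, FDR 0.0917).

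IRF3, a transcription factor of innate immunity, was mapped by CUT&RUN in AgRP neurons of fed males of the IRF3-2D model, which carry a constitutively active IRF3 allele, in 1 sample without leptin. Its 30387 regions, from mice unlike those of the ATAC-seq, were set beside the member peaks. Of the member peaks, 15 of 164 (9.15%) in the 3 states and 12 of 82 (14.6%) in sorted nuclei overlapped an IRF3 region by at least 1 base, against 8.42% and 13.6% of all peaks. The start-site peaks of Jak2, Socs3, Ptpn2 and Sh2b1 did, and those of Lepr, Stat3, Ptpn1 and Ptpn11 did not. How many start-site peaks in general overlap an IRF3 region was not computed, so no excess at the members can be read from this. None of the 7 leptin-opened member peaks overlapped one, and the share over all leptin-opened peaks was not computed. With 8.42% of all peaks overlapping, none of 7 cannot be told from the share of all peaks.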

How the data were processed

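RNA reads were aligned to mm10 with HISAT2 and counted per gene with featureCounts, and ATAC-seq reads were aligned with Bowtie2, with peaks called by MACS2 and reads counted per peak with bedtools, per the labels and the methods of the study. The values deposited by the authors and used here are raw counts per gene and per peak. For IRF3, the authors deposited a SEACR list with the total and maximum signal of each region, of which the positions were used; it was assigned to its sample as the only SEACR list. Deposited log2 CPM tables and CTCF lists were not used here, and the whole-arcuate RNA samples were not analysed here.

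Genes or peaks with a mean over 1 CPM were kept and scaled by TMM, and fitted with edgeR 4.0.16 (quasi-likelihood test, R 4.3.3) over the libraries of 1 line or set, or over 6 groups for AgRP against POMC. Standard errors are those implied by the F statistic. In the correlations between replicate numbers log2 CPM used a prior count of 2. For the genes most like a member a small fixed value was added to CPM instead. Adjustment for multiple tests used Benjamini-Hochberg across every feature tested. The study calls its AgRP libraries of fed, fasted and leptin-treated mice, RNA and ATAC-seq alike, independent biological replicates; for the POMC and sorted-nuclei libraries, where this was not found, p-values measure the spread between these samples, which may be technical. Replicate numbers paired AgRP RNA libraries: deviations of same-numbered libraries correlated at 0.535 to 0.814 over 10 pairs. Alternatives were DESeq2 1.42.0, DESeq2 size factors, library size alone, no filter, the replicate block, the libraries of 1 state alone, no fold minimum, a 50 kb window, the start of any annotated transcript and leaving out each library; those leaving out the libraries high in Slc1a2 or fitting all 6 groups were chosen after seeing the data. The members and gene lists were chosen with earlier results of these data known. Named genes were the members, pathway genes called with fasting or with leptin against fasted in AgRP neurons and the 2 most abundant, of which 1 is not reported here, and the 5 genes most like Socs3 or Lepr. Named peaks were those over start sites, the called peak of largest change per member and contrast, and all called with leptin; others named were chosen after their values were seen. Gene positions came from GENCODE vM21. Scripts were tested on simulated data.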

Additional observations from a re-analysis of the deposited data

Results flagged for a closer look

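In 16 pairs of a member and a group of 4 AgRP RNA libraries, 1 library stood apart by Dixon's criterion for 4 samples, of which chance gives about 1 in 20. It was Jak2 in leptin replicate 1, at 64.2 CPM with the next library at 51.7 CPM, a gap of 0.899 of the group's range. The fasting effect differed between AgRP and POMC neurons, with the replicate number within each line as a block, in edgeR's quasi-likelihood test. The log2 difference was 1.71 for Lepr (FDR 0.000264) and 0.56 for Stat3 (FDR 0.0170). Without the block neither was called (FDR 0.305 and 0.615).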

How the results depend on the processing

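Of 59 called gene or peak results, 31 kept their call in every alternative and 0 changed sign; of 109 not called, 18 were called in at least 1. Member calls moved as follows. AgRP fasting went from 1 to 2 with DESeq2 and without all replicate 4 libraries, and leptin against fasted from 3 to 1 with library size alone. POMC went from 0 to 1 with DESeq2 in each contrast, and to 1 in the 6-group model for leptin against fasted. AgRP against POMC in fed mice went from 0 to 1 with DESeq2 and to 3 without the libraries high in Slc1a2. In ATAC-seq, leptin against fasted went from 7 to 3 with DESeq2, and a 50 kb window gave 15 of 28 calls for fasting, 21 of 36 for leptin against fed and 18 of 30 for sorted nuclei. The causes were not tested beyond the fewer peaks of the smaller window.

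With the replicate block, calls went from 1 to 2 for AgRP fasting, from 0 to 1 in POMC neurons for leptin against fasted and leptin against fed, from 0 to 2 for the fasting interaction and from 7 to 11 for leptin in ATAC-seq. Same-numbered POMC libraries deviated together (correlations of 0.734 to 0.771 over 6 pairs), with POMC replicate 2 standing apart in every state, but with 2 numbers the pairing could not be settled. ATAC libraries correlated by number at -0.0026 to 0.164 (states) and 0.0989 (sorted nuclei, where the block gave 31 calls). No paired analysis was possible because AgRP and POMC libraries come from different mouse lines, for AgRP against POMC within a state.

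Leaving out 1 library gave 1 to 2 calls (AgRP fasting), 2 to 3 (leptin against fasted), 2 to 5 (leptin against fed), 0 to 0 in the 3 POMC contrasts and both interactions, 0 to 2, 3 to 4 and 2 to 5 for AgRP against POMC in fed, fasted and leptin-treated mice, and 21 to 24, 1 to 6 and 24 to 32 for the ATAC-seq contrasts in that order, with 17 to 27 in sorted nuclei. With 2 libraries per group a lone library was assumed to vary like the others. These counts do not follow the same peaks throughout. Without fasted replicate 2, only the +62.9 kb peak of Socs3 was called among the 7 leptin-opened member peaks, and the other calls were at other peaks.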
